A study of Mus musculus with 24 samples.

Results

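A set of 10 genes of hepatic fatty acid synthesis were followed through the liver RNA-sequencing data of WT and Adn-Lpin1-/- mice. They were chosen by symbol, without Acly, Fasn, the acetyl-CoA carboxylase genes and the Scd genes, as the transcription factors that switch on the lipogenic program (Srebf1, Mlxipl and Nr1h3) and 7 of their known targets (Thrsp, Me1, Elovl5, Elovl6, Fads1, Fads2 and Tkfc). All 10 were found among the 41388 genes of the files, each under a single identifier, and all 10 passed the filter on low counts that left 13052 genes for testing.

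The data came from livers of male C57BL/6J mice in 4 groups, WT LFD, Adn-Lpin1-/- LFD, WT HFD and Adn-Lpin1-/- HFD, each with 5 mice sequenced singly and 1 pool made from the RNA of the same mice. Both genotypes carried the floxed Lpin1 allele. The Adn-Lpin1-/- mice also carried Cre under the adiponectin promoter, which deletes the gene in adipocytes, and the WT mice were littermates without Cre, homozygous for the floxed allele, so a group that carried Cre without the floxed allele was not part of the comparison. The diets began at 8 weeks of age and held 10% (LFD, low-fat diet) or 60% (HFD, high-fat diet) of energy as fat. The labels give 16 weeks on the diet and the study's text gives 5 weeks, and the mice were fasted for 4 h before tissue was taken. Because Cre acts in adipocytes, hepatic Lpin1 does not check the genotype labels.

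Srebf1 encodes SREBP-1, a membrane-bound factor that is cut in the Golgi when insulin is high and then activates the genes that make and modify fatty acids. The short form SREBP-1c is the main one in liver. Mlxipl encodes ChREBP, which sugar phosphates activate together with its partner Mlx, and which drives glycolytic, fructolytic and lipogenic genes. Nr1h3 encodes LXRalpha, a sterol-sensing nuclear receptor that partners with RXR and raises transcription of SREBP-1c. Factor activity is set largely by protein cleavage, nuclear entry and ligands, so the mRNA of a factor and its activity are separate quantities, and the mRNA alone was measured here.

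Libraries of single mice held between 36260187 and 81072794 counted reads. The median depth of the other groups was 1.30 to 1.53 times that of WT LFD, so depth and group were not independent, and all comparisons used counts per 1000000 on TMM-scaled library sizes (CPM). Each of the 10 genes was well covered in each mouse, from 2669 reads for Elovl6 to 106473 for Elovl5, both in Adn-Lpin1-/- HFD. Hepatocyte markers dominated all libraries. The summed level of 6 of them (Alb, Ttr, Apoa1, Apob, Cps1 and Serpina1a) averaged 109678 CPM in WT and 93203 CPM in Adn-Lpin1-/- mice on the LFD, then 112357 and 86096 CPM on the HFD, and 2 of the 6 passed the test as lower by genotype on the LFD, against 5 of the 6 on the HFD. Markers of stellate cells passed as higher by genotype for 5 of 8 (LFD) and 4 of 8 (HFD), those of endothelial cells for 2 of 5 and 3 of 5, and those of macrophages for 0 of 7 and 5 of 7. Of all tested genes, 14.4% (LFD) and 18.6% (HFD) passed by genotype, counted in either direction. Of the cholangiocyte, lymphocyte, pancreas and muscle markers, 4 of 4, 1 of 4, 1 of 5 and 0 of 3 were tested, and 1 of these passed by genotype on the LFD, a pancreas marker that was lower, and 0 on the HFD. The summed adipocyte markers reached at most 4.62 CPM in WT and 36.1 CPM in Adn-Lpin1-/- on the LFD, and 16.6 and 183 CPM on the HFD, while Adipoq did not exceed 4.32 CPM in any mouse, and that value was most of the WT LFD maximum. Of 5 adipocyte markers 1 was tested, Cfd, and it passed as higher by genotype on both diets. Cfd alone was 35.9 CPM (LFD) and 183 CPM (HFD) in the Adn-Lpin1-/- mice with the highest sums. On each diet 2 of the 5 markers had a higher mean in Adn-Lpin1-/- than in WT. In such bulk tissue fewer cells of a type and less RNA per cell cannot be told apart, and the part of these shifts in the results below was not tested.

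Promoter sequences are shown for Srebf1, Mlxipl, Elovl5 and Elovl6, to look for the elements through which these factors are known to act. Of these genes, only Elovl5 and Elovl6 passed the test in a comparison of 2 groups. RefSeq windows (GRCm38.p6), reaching from 250 bases before to 50 bases after a transcript start, existed for 9 of the 10 genes in 14 windows, and not for Fads1. The motifs searched on both strands were the sterol regulatory element TCACNCCAC (bound by SREBP), the E-box CACGTG, the ChREBP element as 2 CACGNG sites 5 bases apart, the LXR element as 2 AGGTCA sites 4 bases apart, the CCAAT box and the GC box GGGCGG. Of 32851 windows of 27025 genes, 1.24% held the sterol element, 7.15% the E-box, 0.0822% the ChREBP pair, 0.0152% the LXR pair, 37.4% a CCAAT box and 35.7% a GC box. Only the 250 bases before each start are printed, 5′ to 3′ along the gene's strand, with motifs in capitals.

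Srebf1 has 3 annotated starts spread over 12110 bases of chromosome 11, and the one farthest downstream, by its position, begins SREBP-1c. Neither the sterol element nor the LXR pair in its consensus spelling was in this window. A looser LXR spelling, which is that of the known LXR elements of the mouse SREBP-1c promoter and was searched after the sequence had been seen, occurred at -179 and -128 (first base counted from the start) on the opposite strand, and in 1 of the 32851 windows (0.00304%). Capitals mark these 2 elements, the GC boxes at -65 and -6 and the CCAAT box at -30.
Srebf1, SREBP-1c start, chr11:60210472-60210721, minus strand: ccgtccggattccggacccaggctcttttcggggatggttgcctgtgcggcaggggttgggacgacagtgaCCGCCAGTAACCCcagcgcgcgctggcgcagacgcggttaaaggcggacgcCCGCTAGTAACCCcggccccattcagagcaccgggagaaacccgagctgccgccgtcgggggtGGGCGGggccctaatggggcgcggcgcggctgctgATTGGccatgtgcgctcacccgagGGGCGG

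Mlxipl has 2 annotated starts, 17001 bases apart on chromosome 5. The upstream one lies outside the gene model used for counting, which begins at 135106891, so reads of an exon there were not counted for Mlxipl. Its window held an E-box at -98, a CCAAT box at -173 and GC boxes at -188 and -38, and the downstream window held the sterol element TCACACCAC at -136 and none of the other motifs.
Mlxipl, upstream start, chr5:135089640-135089889, plus strand: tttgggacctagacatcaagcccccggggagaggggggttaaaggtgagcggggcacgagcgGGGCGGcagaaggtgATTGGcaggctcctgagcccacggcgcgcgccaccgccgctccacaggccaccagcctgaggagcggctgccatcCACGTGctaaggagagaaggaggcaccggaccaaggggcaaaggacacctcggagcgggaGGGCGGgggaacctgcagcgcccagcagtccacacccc
Mlxipl, downstream start, chr5:135106641-135106890, plus strand: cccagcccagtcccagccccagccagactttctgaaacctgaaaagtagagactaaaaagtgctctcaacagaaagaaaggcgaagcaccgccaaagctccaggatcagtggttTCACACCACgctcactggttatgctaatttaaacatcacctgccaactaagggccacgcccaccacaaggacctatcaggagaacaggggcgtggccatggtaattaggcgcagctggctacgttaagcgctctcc

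Elovl5 and Elovl6, the elongases among the 10 genes, had unlike windows. Elovl5 held an E-box at -161 and CCAAT boxes at -71 and -17, whereas Elovl6 held none of the motifs, which says only that these letters are not in this window.
Elovl5, chr9:77917115-77917364, plus strand: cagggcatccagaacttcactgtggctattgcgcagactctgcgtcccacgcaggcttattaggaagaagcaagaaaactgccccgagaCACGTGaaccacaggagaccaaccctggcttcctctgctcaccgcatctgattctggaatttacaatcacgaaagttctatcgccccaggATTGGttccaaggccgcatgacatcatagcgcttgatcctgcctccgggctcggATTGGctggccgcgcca
Elovl6, chr3:129532136-129532385, plus strand: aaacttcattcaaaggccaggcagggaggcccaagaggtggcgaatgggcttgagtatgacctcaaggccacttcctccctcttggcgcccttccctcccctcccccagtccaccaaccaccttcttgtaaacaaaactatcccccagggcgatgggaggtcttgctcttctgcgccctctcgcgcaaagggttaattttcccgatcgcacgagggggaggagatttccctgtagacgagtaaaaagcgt

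Of the other genes, Thrsp held CCAAT boxes at -79 and -52, Me1 held GC boxes at -109, -48, -42 and 16 at one start and a CCAAT box at -208 at the other, Fads2 held a GC box at -186, Tkfc held a CCAAT box at -66, and Nr1h3 held none in 2 windows. A match is a description of the letters and was not tested as a binding site. Fads1 and Fads2 are neighbours on chromosome 19 (Fads1 at 10182888-10196870 on the plus strand, Fads2 at 10064164-10101503 on the minus strand, Ensembl gene models on GRCm38), with 81385 bases between their starts, and Tkfc (10592200-10604258, minus strand) lies 395330 bases beyond the end of Fads1.

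Per kilobase of exon, 5 of the 7 targets were more abundant than each of the 3 factors, whereas Me1 lay between the factors and Elovl6 below them. Mean RPKM over the 20 mice ran from 583 ± 200 (SD, n = 20) for Fads2, the delta-6 desaturase, and 552 ± 216 for Thrsp, through Tkfc (283), Fads1 (239), Elovl5 (227), Mlxipl (100.04), Srebf1 (74.4), Me1 (62.8) and Nr1h3 (46.3), to 23.9 ± 10.3 for Elovl6. Even Elovl6 lay above 86.6% of the tested genes, and Fads2 above 99.3%. Neighbours in this order were often not separated: Fads2 exceeded Thrsp in 14 of 20 mice, Tkfc exceeded Fads1 in 11, Fads1 exceeded Elovl5 in 12, Srebf1 exceeded Me1 in 11 and Me1 exceeded Nr1h3 in 12. Steps that held in most mice were Thrsp above Tkfc (19 of 20), Nr1h3 above Elovl6 (19), Elovl5 above Mlxipl (18) and Mlxipl above Srebf1 (17). Of the 3 factors, Mlxipl was thus the most abundant message and Nr1h3 the least.

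**Figure D1:**
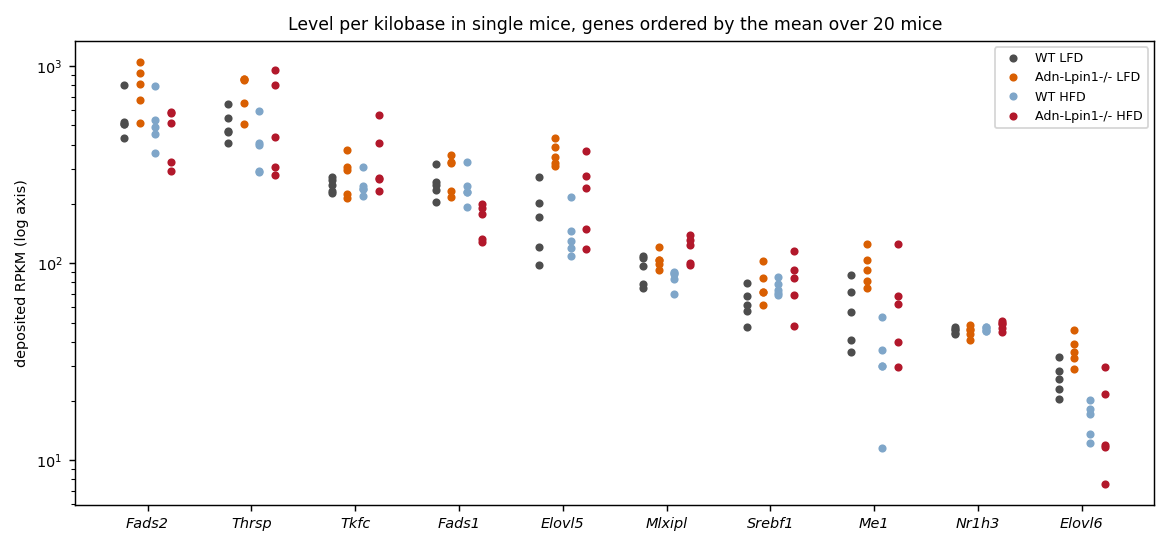
Deposited RPKM (reads per kilobase of exon per 1000000, log axis) of each gene in 20 single mice, coloured by group, with genes ordered by their mean. Nr1h3 sits in a narrow band around 46.3, while Me1, Elovl5 and Elovl6 spread widely within groups.

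The messages of the 3 factors moved little, and none passed the test in any comparison of 2 groups. Srebf1 (ENSMUSG00000020538, chromosome 11, 60199089-60222581, minus strand) was counted at 337, 357, 412, 283 and 466 CPM in the WT LFD mice (371 ± 70.3 CPM, SD, n = 5) and at 402, 466, 392, 346 and 556 CPM in Adn-Lpin1-/- LFD (432 ± 81.5 CPM). On the HFD it was 428, 446, 397, 414 and 508 CPM in WT (438 ± 42.6 CPM) and 479.6, 359.6, 613, 484 and 253 CPM in Adn-Lpin1-/- (438 ± 137 CPM). All 4 groups overlapped, and the Adn-Lpin1-/- HFD mice held both the highest and the lowest value of the 20. The log2 fold change by genotype was 0.22 ± 0.18 (SE) on the LFD (adjusted p = 0.446), against -0.00 on the HFD, where the 95% interval of the difference ran from -0.36 to 0.35. These adjusted p-values, and those that follow without another name, came from the quasi-likelihood test of edgeR, adjusted by Benjamini-Hochberg over all tested genes. Counts are per gene, so SREBP-1a and SREBP-1c are summed, and 175 of the 5634 exon bases of Srebf1 are shared with Rai1 on the other strand or with Mir6922.

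Mlxipl (ENSMUSG00000005373, chromosome 5, 135106891-135138382, plus strand) showed the largest difference by genotype among the factors, and on the HFD only just missed the threshold. The WT LFD mice had 606, 539, 614, 445 and 420.3 CPM (525 ± 89.4 CPM) and the Adn-Lpin1-/- LFD mice 653, 550.3, 545, 531 and 477 CPM (551 ± 63.8 CPM), which overlapped throughout. The WT HFD mice had 495, 454, 494, 388 and 516 CPM (469 ± 50.7 CPM), whereas the Adn-Lpin1-/- HFD mice had 486, 499, 711, 711 and 619 CPM (605 ± 109 CPM). Of the Adn-Lpin1-/- HFD mice, 3 stood above every WT HFD mouse and the other 2 lay among them. The log2 fold change was 0.37 ± 0.13 on the HFD (1.29-fold, adjusted p = 0.0514, exact permutation p = 0.0635) and 0.07 ± 0.13 on the LFD (adjusted p = 0.758). The HFD difference passed the threshold when any of 4 mice was left out (WT LFD mouse 5, Adn-Lpin1-/- LFD mouse 5 and Adn-Lpin1-/- HFD mice 1 and 2; lowest adjusted p = 0.0305 over the 20 fits) and fell to 0.20 when the trend of each library with gene GC content was removed. DESeq2's Wald test (adjusted p = 0.0288) and voom with the pools (adjusted p = 0.0133) also called it. Mlxip, the paralogue MondoA, which is not one of the 10 genes, is given below.

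Nr1h3 (ENSMUSG00000002108, chromosome 2, 91184061-91202834, minus strand) was the steadiest of the 10 genes. Its values were 121, 119, 119, 126 and 116 CPM in WT LFD (120.3 ± 3.75 CPM) and 117, 100.3, 119.6, 114 and 105 CPM in Adn-Lpin1-/- LFD (111 ± 8.24 CPM). On the HFD they were 125, 116, 119, 119 and 127 CPM in WT (121 ± 4.64 CPM) and 108, 115, 121, 114 and 117 CPM in Adn-Lpin1-/- (115 ± 4.75 CPM). Within a group the coefficient of variation was between 3.11% and 7.40%, and the groups overlapped. The log2 fold change by genotype was -0.11 ± 0.05 on the LFD (adjusted p = 0.181), against -0.08 ± 0.05 on the HFD (adjusted p = 0.347). With the GC trend removed it was -0.26 on the LFD (edgeR adjusted p = 0.00612), against -0.25 on the HFD (edgeR adjusted p = 0.0069). Voom with the pools also called it on both diets, at -0.16 on the LFD (voom adjusted p = 0.00643). These were 2 of 9 other settings, so the size and the call of this small difference depended on the processing. By diet Nr1h3 differed by 0.01 in WT and 0.05 in Adn-Lpin1-/- on the log2 scale. It shares 34 of its 2515 exon bases with Gm13783.

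**Figure D2:**
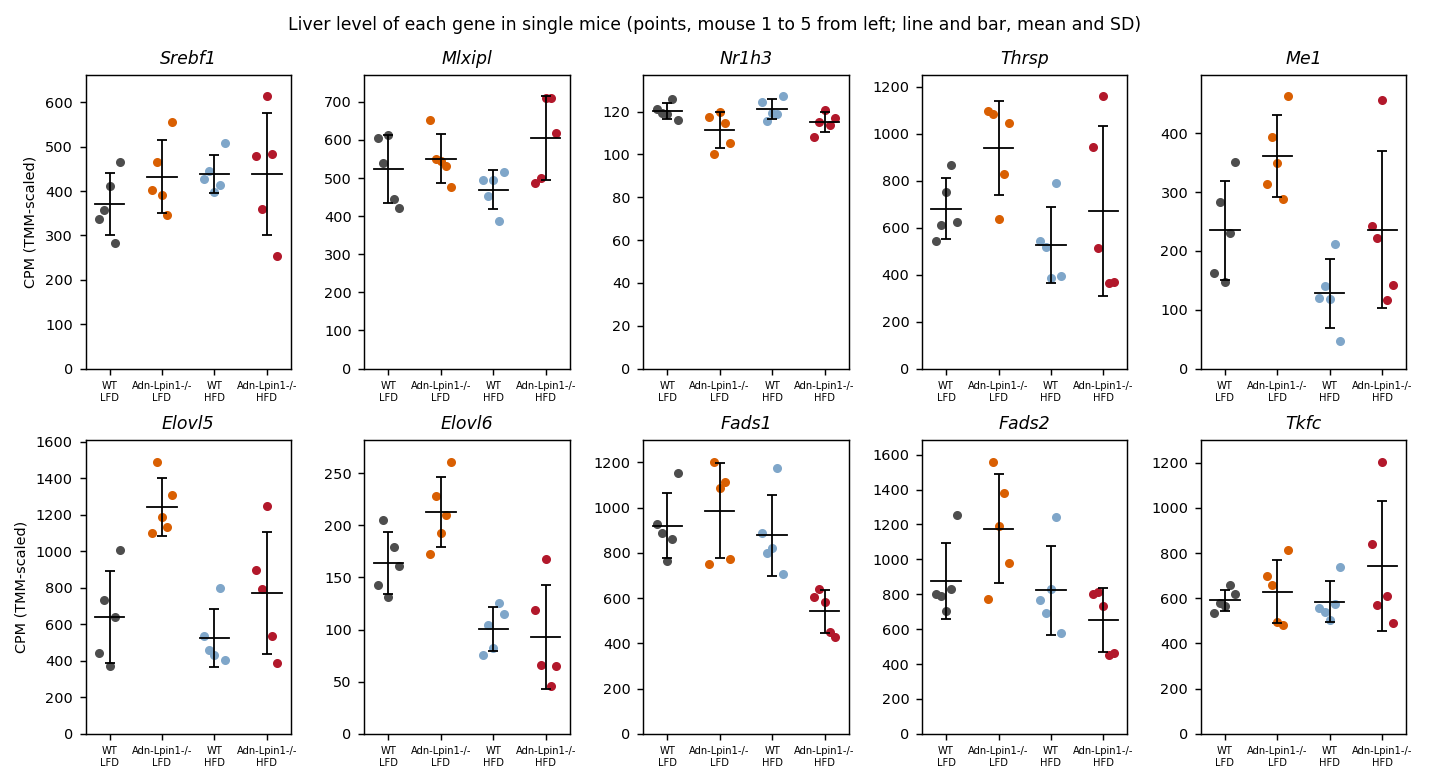
CPM (counts per 1000000 on TMM-scaled library sizes) of the 10 genes, 1 panel each, in the 4 groups, with points for mice 1 to 5 from left to right and lines and bars for the mean and SD (n = 5). Elovl5 is separated by genotype on the LFD, Fads1 by genotype on the HFD, and Elovl6 by diet in both genotypes.

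Thrsp, Me1 and Tkfc serve lipogenesis around its core enzymes. Thrsp encodes Spot 14, a small protein that accompanies lipogenic enzymes and responds to thyroid hormone and carbohydrate. The gene (ENSMUSG00000035686) lies at 97412938-97417730 on the minus strand of chromosome 7. Its WT LFD values were 544, 613, 752, 868 and 623 CPM (680.2 ± 129 CPM), against 1098, 1085, 638, 827 and 1045 CPM in Adn-Lpin1-/- LFD (939 ± 201 CPM). The HFD groups had 544, 516, 384, 789 and 395 CPM in WT (526 ± 163 CPM) and 943, 515, 1159, 363 and 368 CPM in Adn-Lpin1-/- (669.7 ± 362 CPM). Of the Adn-Lpin1-/- LFD mice, 3 lay above all WT LFD mice, and the Adn-Lpin1-/- HFD mice held both the highest and the lowest value of the 20. No comparison passed: the log2 fold change by genotype was 0.46 ± 0.28 on the LFD (adjusted p = 0.291), against 0.35 ± 0.28 on the HFD (adjusted p = 0.409), and by diet -0.37 in WT and -0.49 in Adn-Lpin1-/-.

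Me1, the cytosolic malic enzyme that supplies NADPH for fatty acid synthesis, was on average higher in Adn-Lpin1-/- mice on both diets, with large differences between mice. It lies at 86581371-86695953 on the minus strand of chromosome 9 (ENSMUSG00000032418) and shares 30 of its 3848 exon bases with A330041J22Rik on the other strand. In WT LFD it was 163, 283, 147, 231 and 351 CPM (235 ± 84.5 CPM) and in Adn-Lpin1-/- LFD 313, 395, 349, 287 and 463 CPM (362 ± 69.5 CPM). In WT HFD it was 121, 140.5, 119, 212 and 47.1 CPM (128 ± 59.1 CPM) and in Adn-Lpin1-/- HFD 242, 222, 456, 117 and 143 CPM (236 ± 134 CPM). The groups overlapped on each diet, with 1 WT HFD mouse at 47.1 CPM far below the rest. The log2 fold change by genotype was 0.62 ± 0.35 on the LFD (adjusted p = 0.253), against 0.88 ± 0.35 on the HFD (1.84-fold, adjusted p = 0.0837), neither of which passed. The HFD difference passed in 2 of the 20 fits that left out a mouse. These were without WT HFD mouse 4 (1.14, adjusted p = 0.0388) and without Adn-Lpin1-/- HFD mouse 4 (1.05, adjusted p = 0.0399). Averaged over the diets the genotype difference was 0.75 ± 0.25 and passed (adjusted p = 0.0248), but without mouse 3 of Adn-Lpin1-/- HFD it was 0.56 and did not (edgeR adjusted p = 0.0612). By diet Me1 differed by -0.88 ± 0.35 in WT (adjusted p = 0.225) and by -0.62 ± 0.35 in Adn-Lpin1-/- (adjusted p = 0.403).

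Tkfc encodes triokinase, which phosphorylates the glyceraldehyde released from fructose (ENSMUSG00000034371). It was 535, 579, 565, 657 and 618 CPM in WT LFD (591 ± 47.4 CPM) and 698, 659, 497, 480.3 and 814 CPM in Adn-Lpin1-/- LFD (629.6 ± 141 CPM). On the HFD it was 558, 541, 505, 576 and 739 CPM in WT (584 ± 90.5 CPM) and 842, 568, 1205, 611 and 490.2 CPM in Adn-Lpin1-/- (743 ± 290 CPM). The group mean was highest in Adn-Lpin1-/- HFD, and the spread was wider in both Adn-Lpin1-/- groups than in the WT group on the same diet. Its log2 fold change by genotype was 0.09 ± 0.19 on the LFD (adjusted p = 0.796), against 0.35 ± 0.19 on the HFD (adjusted p = 0.22), the latter falling to 0.10 without the mouse at 1205 CPM.

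Elovl5 (ENSMUSG00000032349, chromosome 9, 77917364-77984519, plus strand), which elongates polyunsaturated and some monounsaturated fatty acids, was the only one of the 10 genes to pass by genotype on the LFD. The WT LFD mice had 441, 732, 373, 643 and 1006 CPM (639 ± 252 CPM), and the Adn-Lpin1-/- LFD mice had 1099, 1492, 1188, 1135 and 1309.5 CPM (1245 ± 160 CPM). Every Adn-Lpin1-/- LFD mouse was above every WT LFD mouse. The log2 fold change was 0.96 ± 0.28 (1.95-fold, adjusted p = 0.0260), and the two-sided exact permutation test gave p = 0.00794, the smallest value that 5 against 5 allows. The fold change was between 0.95 and 1.13 in 9 other settings and passed in 8 of them. The call was lost without WT LFD mouse 1, 3 or 4 or Adn-Lpin1-/- LFD mouse 2 or 5, with a highest adjusted p = 0.076 over the 20 fits that each left out a mouse. On the HFD the WT mice had 537, 461, 431, 797 and 406 CPM (526 ± 159 CPM) and the Adn-Lpin1-/- mice 897, 791, 1246, 535 and 390.5 CPM (772 ± 333 CPM), which overlapped. There the log2 fold change was 0.55 ± 0.28 (adjusted p = 0.169), and 0.31 without mouse 3 of Adn-Lpin1-/- HFD. The difference between the diets in the genotype effect was -0.41 ± 0.39 (adjusted p = 0.877), so the effect was not shown to differ between diets. Averaged over the diets Elovl5 was higher in Adn-Lpin1-/- by 0.76 ± 0.20 (1.69-fold, adjusted p = 0.00598).

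Elovl6 (ENSMUSG00000041220, chromosome 3, 129532386-129638495, plus strand), the elongase that turns palmitate into stearate, followed the diet. On the LFD it was 142, 205, 131, 179 and 161 CPM in WT (164 ± 29.6 CPM) and 173, 228, 192, 209.7 and 261 CPM in Adn-Lpin1-/- (213 ± 34.0 CPM). On the HFD it was 75.5, 104, 82.7, 125 and 115 CPM in WT (101 ± 21.1 CPM) and 119, 66.3, 168, 46.0 and 65.0 CPM in Adn-Lpin1-/- (92.8 ± 49.9 CPM). Within each genotype every HFD mouse was below every LFD mouse (two-sided exact permutation test, p = 0.00794 in each). In Adn-Lpin1-/- the log2 fold change was -1.20 ± 0.26 (0.436-fold, adjusted p = 0.0177) and passed in all 20 fits that left out a mouse, but not in a fit of these 2 groups alone (-1.20, adjusted p = 0.0864). In WT it was -0.70 ± 0.26 (0.614-fold) and did not pass over all genes (adjusted p = 0.182). Averaged over the genotypes Elovl6 was lower on the HFD (log2 fold change -0.95 ± 0.18, 0.518-fold, adjusted p = 0.00348). By genotype the log2 differences were 0.38 ± 0.25 on the LFD (adjusted p = 0.344), against -0.12 ± 0.25 on the HFD (adjusted p = 0.785), the latter -0.44 without mouse 3 of Adn-Lpin1-/- HFD.

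Fads1 (ENSMUSG00000010663), the delta-5 desaturase that completes arachidonate and eicosapentaenoate, was lower in the Adn-Lpin1-/- HFD mice than in both groups it was compared with. Its values there were 603, 642, 585, 449 and 430.0 CPM (542 ± 95.9 CPM), below all 5 WT HFD mice at 887, 799.8, 820.5, 1176 and 705 CPM (878 ± 179 CPM). They were also below all 5 Adn-Lpin1-/- LFD mice at 749, 1204, 1087, 1115 and 773 CPM (986 ± 209.5 CPM). WT LFD mice had 928, 889, 766, 859.7 and 1152 CPM (919 ± 144 CPM). Against WT HFD the log2 fold change was -0.70 ± 0.16 (0.617-fold, adjusted p = 0.00632), and against Adn-Lpin1-/- LFD it was -0.86 ± 0.16 (0.550-fold, adjusted p = 0.00631). Each comparison reached the smallest exact permutation p that 5 against 5 allows, 0.00794, and passed in all 20 fits that left out a mouse and in all 9 other settings. The 2 comparisons share the Adn-Lpin1-/- HFD mice and are therefore not independent. By genotype on the LFD the difference was 0.10 ± 0.16 (adjusted p = 0.718) and by diet in WT -0.07 ± 0.16 (adjusted p = 0.885). The difference between the 2 genotype effects was -0.80 ± 0.23 and did not pass over all genes (adjusted p = 0.387, unadjusted p = 0.00207).

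Fads2 (ENSMUSG00000024665), the delta-6 desaturase that opens the same pathway, had the same order of group means. It was 802, 792, 705, 831 and 1255 CPM in WT LFD (877 ± 216 CPM) and 773, 1560.0, 1193, 1381 and 976 CPM in Adn-Lpin1-/- LFD (1176 ± 313 CPM). On the HFD it was 767, 691, 829.6, 1245 and 580.2 CPM in WT (823 ± 254 CPM) and 799.8, 815, 735, 451 and 460.3 CPM in Adn-Lpin1-/- (652 ± 182 CPM). All pairs of groups overlapped, with 1 high mouse in each WT group. In Adn-Lpin1-/- the diet difference was -0.85 ± 0.23 (0.554-fold) and fell just outside the threshold (adjusted p = 0.0522). It passed in 5 of 9 other settings and in 5 of the 20 fits that left out a mouse. By genotype the log2 differences were 0.42 ± 0.23 on the LFD (adjusted p = 0.227), against -0.34 ± 0.23 on the HFD (adjusted p = 0.319), and by diet in WT -0.09 ± 0.23 (adjusted p = 0.889).

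Counted together, few of the 10 genes passed in any comparison. By genotype 1 of 10 passed on the LFD (Elovl5), where 14.4% of all tested genes did, and 1 of 10 on the HFD (Fads1), where 18.6% did. By diet 0 of 10 passed in WT, where 1.1% of tested genes did. In that comparison 2 of the 10 had an unadjusted edgeR p under 0.05 (Me1 and Elovl6), DESeq2 called 0, and limma's voom with quality weights called 1 (Elovl6). In Adn-Lpin1-/- 2 of 10 passed by diet (Elovl6 and Fads1), both lower on the HFD, where 2.46% of tested genes did. Averaged over diets the genotype comparison called 3 of 10 (Me1 and Elovl5 higher, Fads1 lower, the last in only 7 of the 20 fits that left out a mouse) against 32.9% of tested genes, and averaged over genotypes the diet comparison called 2 of 10 (Elovl6 and Fads1, both lower) against 7.26%. The shares of the genotype comparisons were thus near or below those of all genes, while the count by diet in Adn-Lpin1-/- was above its background. The 4 comparisons share groups in pairs, so their counts are not independent.

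Groups that did not overlap gave the same picture. Elovl5 was separated by genotype on the LFD (1 of 10, against 10.1% of tested genes), Fads1 by genotype on the HFD (1 of 10, against 11.4%), Elovl6 by diet in WT (1 of 10, against 3.73%), and Elovl6 and Fads1 by diet in Adn-Lpin1-/- (2 of 10, against 4.06%). The median log2 fold change of the 10 genes was 0.30 by genotype on the LFD, with 9 of 10 above 0, and 0.17 on the HFD, with 5 of 10 above 0. With the GC trend removed, Mlxipl (-0.077) and Tkfc (-0.040) fell below 0 by genotype on the LFD. By diet the median was -0.13 in WT, with 2 of 10 above 0, and -0.55 in Adn-Lpin1-/-, with 4 of 10 above 0. The median over all tested genes was between 0.00 and 0.01 in each of these comparisons. Several of the 10 genes varied together within groups, so their signs are not independent of each other.

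**Figure D3:**
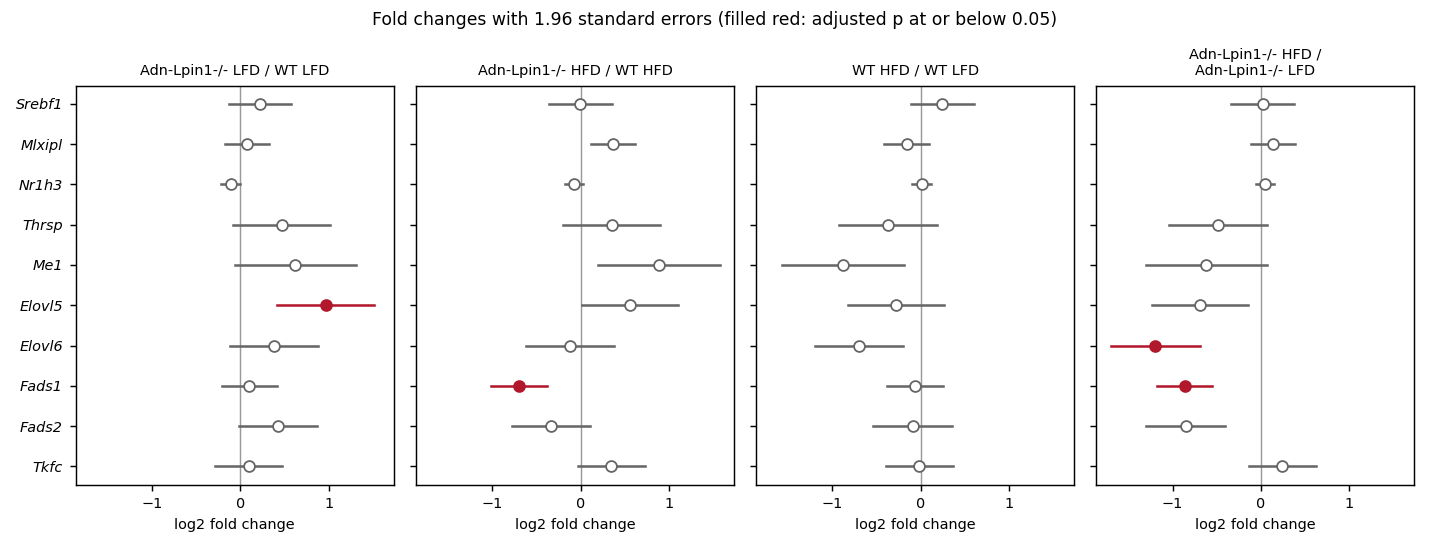
Log2 fold changes of the 10 genes in the 4 comparisons of 2 groups, with 95% intervals as bars and filled red points where the edgeR adjusted p was at or below 0.05. Elovl5 passes by genotype on the LFD, Fads1 by genotype on the HFD, and Elovl6 and Fads1 by diet in Adn-Lpin1-/- mice.

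Whether the genotype effect differed between the diets was tested directly, and none of the 10 genes passed, as none of the 13052 genes did in edgeR (0%). At an unadjusted p under 0.05 there were 938 genes, of which 2 were among the 10, Fads1 and Fads2 (-0.76 ± 0.32, adjusted p = 0.66). DESeq2's Wald test and limma's voom on the single mice each called 0 of the 10, and voom with the pools as sixth libraries called Fads1 and Fads2. The pools hold RNA of the same mice, so that count rests on libraries that are not separate animals.

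By their median, though not gene by gene, the lipogenic genes differed more between mice of a group than most genes did. Their median coefficient of variation was 18.5% in WT and 19.03% in Adn-Lpin1-/- mice on the LFD, and 20.7% and 35.1% on the HFD, where the medians over all tested genes were 12.5%, 12.0%, 11.5% and 12.9%. For genes with a group mean over 100 CPM the medians were 9.08%, 8.50%, 8.62% and 10.4%. Nr1h3 lay below the median of all tested genes in each group. So did Tkfc in WT LFD (8.02%), Mlxipl in Adn-Lpin1-/- LFD (11.6%), and Srebf1 (9.71%) and Mlxipl (10.8%) in WT HFD. In Adn-Lpin1-/- HFD, single mice stood high or low in many of the genes. Mouse 3 was above its group mean in 10 of 10 genes, by a median of 0.66 on the log2 scale (range 0.07 to 1.12), and mouse 1 in 8 of 10 by a median of 0.23. Mice 4 and 5 were below in 8 of 10, with medians of -0.33 and -0.49. The order was not the same in each gene. In Mlxipl mice 3 and 4 were equal at 711 CPM, in Fads1 and Fads2 mouse 3 was below mice 1 and 2, and in Nr1h3 mouse 1 was the lowest.

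**Figure D4:**
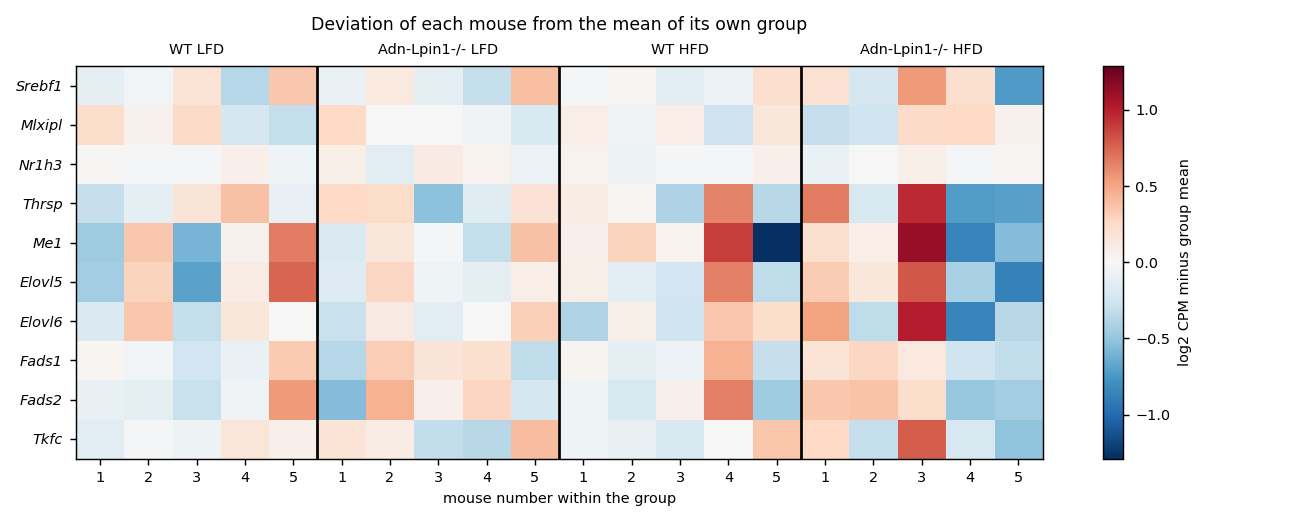
Difference of each mouse's log2 CPM from the mean of its own group, for the 10 genes (rows) and 20 mice (columns, 5 a group), red above and blue below. Mouse 3 of Adn-Lpin1-/- HFD is above its group mean in all 10 genes, and mice 4 and 5 are below in 8 each.

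Leaving out that mouse moved several values by genotype on the HFD without changing which genes passed. Fads1 was -0.73 (edgeR adjusted p = 0.0103), Mlxipl 0.30 (adjusted p = 0.128), Me1 0.50 (adjusted p = 0.307), Elovl5 0.31 (adjusted p = 0.454) and Thrsp 0.06 (adjusted p = 0.908). By diet in Adn-Lpin1-/- the decreases became larger: Elovl6 was -1.52 (edgeR adjusted p = 0.00125), Fads1 -0.89 (adjusted p = 0.0111) and Elovl5 -0.93 (adjusted p = 0.0813). Because this mouse was above its group mean in all 10 genes, leaving it out lowers the group mean of each. The smaller increases and larger decreases follow from that, and do not show which differences were the firmer.

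How the targets varied with the factors across mice was examined after the group means had been removed, in 21 factor and target pairs over the 20 mice, by permutation within groups with Benjamini-Hochberg adjustment over the 21. None passed. The closest were Srebf1 with Tkfc (Pearson's r = 0.75, permutation p = 0.00343, adjusted p = 0.0655; Spearman's rho = 0.66, permutation p = 0.00821, adjusted p = 0.0862) and Mlxipl with Fads2 (r = -0.65, permutation p = 0.00624, adjusted p = 0.0655; rho = -0.69, permutation p = 0.00329, adjusted p = 0.0691). Without the 2 mice farthest from the median of the factor, r was 0.55 for the first pair and -0.55 for the second. Srebf1 and the classical lipogenic targets were weaker, at r = 0.43 for Thrsp and Elovl6 alike, 0.30 for Me1 and 0.49 for Elovl5. Without mice 3 and 5 of Adn-Lpin1-/- HFD, the 2 farthest for Srebf1, these fell to 0.03, 0.12, -0.04 and 0.09. Within single groups of 5 mice the r of Srebf1 with Thrsp, Elovl6, Me1 and Elovl5 was unlike. It was 0.53, 0.73, 0.97 and 0.67 in Adn-Lpin1-/- LFD, and 0.70, 0.55, 0.58 and 0.80 in Adn-Lpin1-/- HFD. In WT it was -0.36, -0.36, 0.25 and 0.23 on the LFD, and -0.33, 0.41, -0.81 and -0.45 on the HFD. Nr1h3 had r between -0.36 and -0.05 with the 7 targets.

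The r of Mlxipl was negative with 6 of the 7 targets and was 0.03 with Tkfc, and the strongest after Fads2 were Fads1 (r = -0.54, permutation adjusted p = 0.148) and Elovl5 (r = -0.51, permutation adjusted p = 0.283). Without mouse 3 of Adn-Lpin1-/- HFD, 7 of the 21 pairs passed by the permutation test. They were Mlxipl with Elovl5 (r = -0.79, permutation adjusted p = 0.0123), Me1 (r = -0.77, permutation adjusted p = 0.0123), Fads2 (r = -0.75, permutation adjusted p = 0.0123), Elovl6 (r = -0.67, permutation adjusted p = 0.0298) and Fads1 (r = -0.62, permutation adjusted p = 0.0336), besides Nr1h3 with Me1 (r = -0.48, permutation adjusted p = 0.0387) and Srebf1 with Tkfc (r = 0.65, permutation adjusted p = 0.0336). Without Adn-Lpin1-/- LFD mouse 5, Mlxipl passed with Fads1 and Fads2 (permutation adjusted p = 0.0271 for each), and Srebf1 passed with Tkfc without Adn-Lpin1-/- HFD mouse 4 (permutation adjusted p = 0.0489) or WT LFD mouse 4 (permutation adjusted p = 0.0160). The outcome of this test thus depended on single mice.

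Among the 10 genes themselves, the 45 within-group correlations ran from -0.65 to 0.96 with a median of 0.32, 15 of them above 0.5 and 15 below 0. They are descriptions over the same 20 libraries. Fads1 and Fads2, the neighbouring desaturases, moved together most closely (r = 0.96), and other close pairs were Me1 with Elovl5 (0.85), Elovl5 with Fads2 (0.75), and Thrsp and Tkfc each with Elovl6 (0.73).

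**Figure D5:**
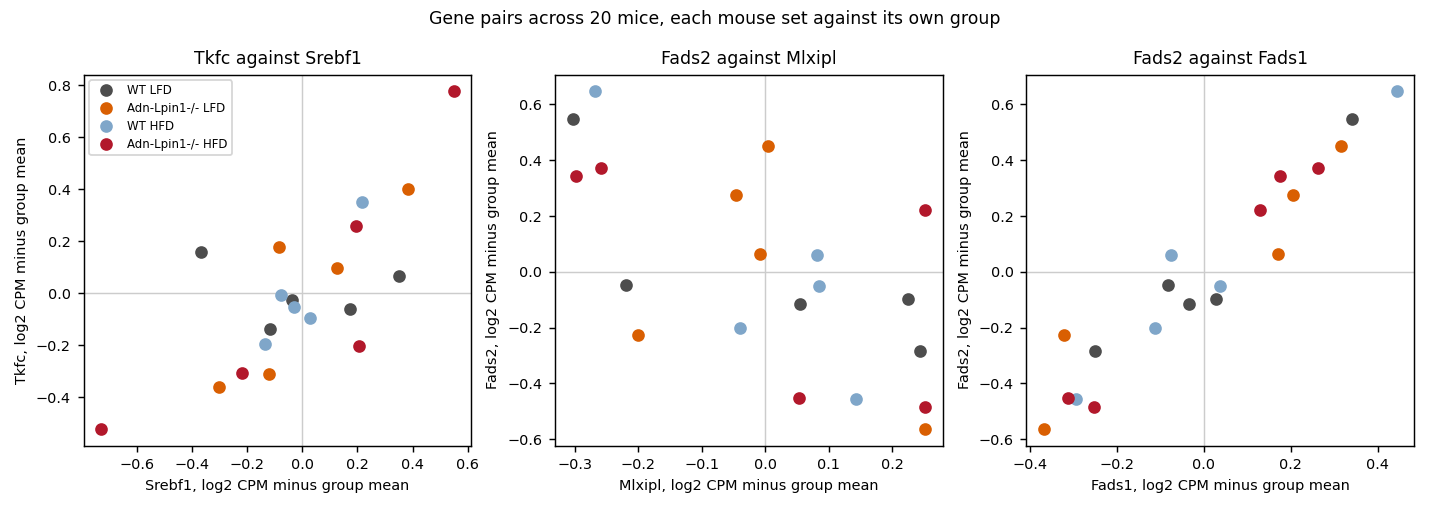
Log2 CPM minus the group mean for 3 gene pairs in 20 mice, coloured by group: Tkfc against Srebf1 (r = 0.75), Fads2 against Mlxipl (r = -0.65) and Fads2 against Fads1 (r = 0.96). The 2 desaturases fall along a line in every group, while the other pairs scatter.

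The 5 tested genes whose within-group pattern over the 20 mice was most like that of each factor were also listed. For Srebf1 they included Celsr1 (r = 0.83), Gm12164 (0.83), Insig1 (0.82) and Tmem38b (0.82). For Mlxipl they were Akap8l (0.89), Atp13a1 (0.88), Khdc4 (0.88), Elof1 (0.88) and Srrt (0.87). For Nr1h3 they were Eif2b4 (0.86), Smim4 (0.83), Serpina3b (0.81), Pa2g4 (0.80) and Mta1 (0.80).

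Around SREBP-1, 8 genes of its processing were counted (Scap, Insig1, Insig2, both site proteases Mbtps1 and Mbtps2, Srebf2, Fbxw7 and Ppargc1b). By genotype 1 of 8 passed on the LFD, as higher, and 1 of 8 on the HFD, as lower, with medians of 0.10 and -0.10 on the log2 scale, and 0 of 8 passed by diet in either genotype. The shares of all tested genes were 14.4% (LFD) and 18.6% (HFD) by genotype, and 1.1% (WT) and 2.46% (Adn-Lpin1-/-) by diet. Insig2, which holds the SREBP complex in the endoplasmic reticulum, averaged 138 CPM in WT LFD and 232 CPM in Adn-Lpin1-/- LFD (log2 fold change 0.75 ± 0.21, adjusted p = 0.0225), and 113 and 171 CPM on the HFD (0.60 ± 0.21, adjusted p = 0.0515). Scap, the escort protein, was 155 CPM in WT HFD and 123 CPM in Adn-Lpin1-/- HFD (-0.33 ± 0.11, adjusted p = 0.035). Insig1 (0.19 and -0.09 by genotype) and Srebf2 (0.12 and -0.13), the factor of cholesterol synthesis, did not pass.

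Around ChREBP, 11 partners and sugar-handling genes were counted, among them Mlx, Mlxip, Gckr, Slc2a2, Khk, Pklr, Txnip, Gpd1 and Fgf21. By genotype 1 passed as higher and 1 as lower on the LFD, 2 passed as higher on the HFD, and 0 passed by diet in either genotype. The shares of all tested genes were 14.4% (LFD) and 18.6% (HFD) by genotype, and 1.1% (WT) and 2.46% (Adn-Lpin1-/-) by diet. Mlxip, which encodes the ChREBP paralogue MondoA, was low and passed on both diets, at 11.1 and 14.8 CPM on the LFD (0.42 ± 0.11, adjusted p = 0.0160) and 8.85 and 15.0 CPM on the HFD (0.76 ± 0.11, adjusted p = 0.00018) in WT and Adn-Lpin1-/-. Slc2a2, the hepatic glucose transporter GLUT2, passed as lower on the LFD (-0.29 ± 0.09, adjusted p = 0.0287) and was -0.14 ± 0.09 on the HFD (adjusted p = 0.253). Gpd1, which makes glycerol 3-phosphate, passed as higher on the HFD (0.45 ± 0.15, adjusted p = 0.0409) and was 0.39 ± 0.15 on the LFD (adjusted p = 0.0838). Fgf21, a ChREBP-responsive hormone, was 2.76 CPM in WT LFD and 6.06 CPM in Adn-Lpin1-/- LFD without passing (1.14 ± 0.39, adjusted p = 0.0567). On the HFD its difference had the opposite sign, at 4.15 CPM in WT and 2.79 CPM in Adn-Lpin1-/- (-0.57 ± 0.38, adjusted p = 0.317).

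Around LXR, 10 partners and targets were counted (Nr1h2, Rxra, Abca1, Abcg1, Abcg5, Abcg8, Mylip, Lpcat3, Pltp and Smpdl3a). By genotype 2 passed as higher and 1 as lower on each diet, and by diet 0 passed in WT and 1 in Adn-Lpin1-/-, as lower. The shares of all tested genes were 14.4% (LFD) and 18.6% (HFD) by genotype, and 1.1% (WT) and 2.46% (Adn-Lpin1-/-) by diet. These LXR targets did not move one way: Abca1, the cholesterol exporter, was lower in Adn-Lpin1-/- with either diet, on the LFD (-0.44 ± 0.08, adjusted p = 0.00124) as on the HFD (-0.60 ± 0.08, adjusted p = 7.4e-05), whereas Mylip, which degrades the LDL receptor, was higher on both (0.66 ± 0.18, adjusted p = 0.0215, and 0.61 ± 0.18, adjusted p = 0.0237). Pltp, the phospholipid transfer protein, was 42.3 CPM in WT LFD and 107 CPM in Adn-Lpin1-/- LFD (1.34 ± 0.44, adjusted p = 0.0456) and 25.2 CPM in Adn-Lpin1-/- HFD (-2.08 ± 0.45 against the LFD, adjusted p = 0.0177). Abcg5 and Smpdl3a did not pass in a comparison of 2 groups.

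Also counted were 11 genes that feed lipogenesis with NADPH, citrate, acetate or acyl acceptors (G6pdx, Pgd, Taldo1, Tkt, Idh1, Slc25a1, Acss2, Aacs, Mid1ip1, Pnpla3 and Gpam). The minority that passed by diet within a genotype were all lower on the HFD, and those that passed by genotype went in both directions. By diet 2 of 11 passed as lower in WT and 4 of 11 in Adn-Lpin1-/-, with 0 higher in either, and averaged over genotypes 3 passed as lower and 1 as higher. By genotype 2 passed as higher on the LFD, and 2 as higher and 2 as lower on the HFD. The shares of all tested genes were 1.1% (WT), 2.46% (Adn-Lpin1-/-) and 7.26% (averaged) by diet. By genotype the shares were 14.4% (LFD) and 18.6% (HFD). Pnpla3, a lipid droplet hydrolase that SREBP-1c and ChREBP induce, fell from 6.41 to 0.98 CPM in WT (-2.71 ± 0.51, adjusted p = 0.0128) and from 9.80 to 1.89 CPM in Adn-Lpin1-/- (-2.36 ± 0.48, adjusted p = 0.0122). G6pdx, the entry enzyme of the pentose phosphate pathway, fell in both genotypes (-1.44 ± 0.28, adjusted p = 0.0157, and -1.17 ± 0.27, adjusted p = 0.0279). Acss2, which activates acetate, fell from 207 to 78.7 CPM in Adn-Lpin1-/- (-1.40 ± 0.26, adjusted p = 0.0062) and was -0.68 ± 0.25 in WT (adjusted p = 0.193).

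Of 14 further genes of elongation and desaturation (Elovl1, Elovl2, Elovl3, Elovl4, Elovl7, Hsd17b12, Tecr, Hacd1, Hacd2, Hacd3, Fads3, Fads6, Cyb5a and Cyb5r3), 12 were tested, since Elovl4 and Elovl7 did not pass the filter. By diet in Adn-Lpin1-/- 5 of 12 passed, all lower on the HFD, and 0 of 12 passed in WT. By genotype 1 was higher and 1 lower on the LFD, and 3 were lower on the HFD. The shares of all tested genes that passed were 2.46% by diet in Adn-Lpin1-/-, 1.1% by diet in WT, and 14.4% (LFD) and 18.6% (HFD) by genotype. Elovl2, the elongase that follows the desaturase steps of Fads1 and Fads2, was 726 CPM in WT HFD and 508 CPM in Adn-Lpin1-/- HFD (-0.52 ± 0.14, adjusted p = 0.0167), and 873 CPM in Adn-Lpin1-/- LFD (-0.78 ± 0.14 for the HFD against the LFD, adjusted p = 0.00534). Cyb5r3, the reductase that hands electrons to the desaturases through cytochrome b5, was likewise lower in Adn-Lpin1-/- HFD than in WT HFD (-0.30 ± 0.10, adjusted p = 0.0435) and than in Adn-Lpin1-/- LFD (-0.64 ± 0.10, adjusted p = 0.00191). Fads3 fell from 61.4 to 18.7 CPM with the HFD in Adn-Lpin1-/- (-1.71 ± 0.29, adjusted p = 0.00337) and was -1.12 ± 0.29 in WT (adjusted p = 0.0646). Elovl2 and Cyb5r3 were thus, like Fads1, lowest in Adn-Lpin1-/- HFD, and both comparisons in which they passed share that group. By diet in WT none of the 3 passed, but their values were unlike. Cyb5r3 was -0.35 ± 0.10 (adjusted p = 0.0994), Elovl2 -0.20 ± 0.14 (adjusted p = 0.513) and Fads1 -0.07 ± 0.16 (adjusted p = 0.885).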

How the data were processed

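Liver RNA was sequenced from 5 single mice and 1 pool in each of 4 groups (24 libraries). Per the labels and the study's methods, polyadenylated RNA was read without strand marking, aligned with STAR 2.5.1a to Ensembl release 76 (GRCm38), and uniquely aligned, unambiguous reads were counted per gene with featureCounts 1.4.6-p5. The authors deposited counts, CPM (counts per 1000000 of the library) and RPKM (that CPM per kilobase of exon) for 41388 genes, 97.5% of which had a symbol. Deposited counts were used for all tests, deposited RPKM for levels between genes, and CPM recomputed on TMM-scaled library sizes for values by mouse.

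Ribosomal RNA genes (355, with 0.265% to 0.465% of counts) were left out, and the 13052 genes that exceeded 1 CPM in 4 or more of the 20 single mice were kept. The 4 groups entered 1 fit of edgeR 4.0.16 (quasi-likelihood test, TMM, R 4.3.3), and an adjusted p at or below 0.05 over all tested genes was called. The pools repeat RNA of the same mice and entered an alternative only. Group values of single genes were also compared by two-sided exact permutation of log2 CPM (252 arrangements), and factors and targets by 100000 permutations within groups. Alternatives were DESeq2 1.42.0, limma 3.58.1 (voom with quality weights), other filters and scaling, the replicate number as a block, a GC correction, and each mouse left out in turn. Values, correlations and figures were made with Python 3.11.15, pandas 2.3.3, numpy 2.4.6, matplotlib 3.10.9 and scipy 1.17.1, and the fits were tested on simulated counts.

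The 10 genes and the lists of related genes were chosen with earlier results of these data known. Named were all 10 genes, at most 3 called genes with the smallest adjusted p and 2 uncalled genes with the largest fold change per list, and the 5 genes most like each factor. Values of 2 genes that these rules named are not reported here. Same-numbered mice of different groups were not paired: the correlation of their deviations over genes had a median of -0.01 in 30 pairs and exceeded 0.1 in 7.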

Additional observations from a re-analysis of the deposited data

Results flagged for a closer look

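A single value stood apart from its group by Dixon's gap test. Fads2 in mouse 5 of WT LFD was 1255 CPM, while the other 4 mice of the group had 705 to 831 CPM, so the gap took 0.770 of the group's range (critical value 0.71 for 5 mice). Over the 40 groups of values tested, chance gives about 2 such values (1 in 20). Fads1 in the same mouse, 1152 CPM, was also the highest of its group. The genotype comparison of Fads2 on the LFD did not pass with or without that mouse. Its cause was not tested.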

How the results depend on the processing

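Of 600 recomputed fold changes of the 10 genes under other settings, 552 kept their direction and side of the threshold, 33 passed newly, 6 no longer passed and 9 changed sign. Of 1400 with 1 mouse left out, the numbers were 1322, 18, 19 and 41. With voom and the pools as sixth libraries, 4 genes passed by genotype on the LFD, 5 on the HFD, 2 by diet in WT, 4 by diet in Adn-Lpin1-/-, 2 for the difference between genotype effects, and 6 in each averaged comparison. Voom on single mice called 1 by diet in WT, DESeq2's Wald test called 2 by genotype on the HFD, removal of the GC trend called 2 by genotype on each diet, and a fit of only the groups compared called 1 by diet in Adn-Lpin1-/-. The replicate block, although the numbers did not pair the mice (6 of 20 libraries correlated best with their own number), called 0 by genotype on the LFD (Elovl5 adjusted p = 0.0545, edgeR) and 1 in the averaged genotype comparison. With 1 mouse left out, the counts ran from 0 to 1 by genotype on the LFD, 1 to 2 on the HFD, 2 to 3 by diet in Adn-Lpin1-/-, 1 to 4 and 2 to 4 in the averaged genotype and diet comparisons, and 0 to 7 for the factor and target pairs, where DESeq2 size factors left 0. The averaged Fads1 difference by genotype (-0.30, adjusted p = 0.0481) kept its call in 7 of the 20 fits. Over all genes, calls by diet moved most: 144 in WT and 321 in Adn-Lpin1-/- became 400 and 577 with DESeq2, 670 with voom in WT, 1934 and 2327 with the pools, 72 and 161 with only the groups compared, and 90 in WT under the block. With 1 mouse left out they ran from 55 to 289 and from 123 to 378. Averaged by diet, 948 became 1539 with voom and 3598 with the pools. The genotype calls, 1877 (LFD) and 2434 (HFD), became 4149 and 4624 with the pools, and 1210 to 1959 and 1475 to 2756 with 1 mouse left out. For the difference between genotype effects, 0 became 30 with DESeq2 and 198 with the pools.

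Sign changes touched small values that had not passed. With the GC trend removed, Mlxipl (-0.077) and Tkfc (-0.040) turned by genotype on the LFD, and Srebf1 (-0.068) and Fads2 (-0.089) in the averaged genotype comparison. Srebf1 by genotype on the HFD was 0.0025 under the block, Nr1h3 by diet in WT was -0.0048 under voom and -0.021 with the pools, Fads2 by diet in WT was 0.022 under voom, and Nr1h3 averaged by diet was -0.0024 with the pools. Ranges that crossed 0 with 1 mouse left out were, by genotype, Mlxipl (-0.00019 to 0.13) and Tkfc (-0.018 to 0.17) on the LFD, Srebf1 (-0.15 to 0.14) and Elovl6 (-0.44 to 0.046) on the HFD, and Elovl6 (-0.031 to 0.21) and Fads2 (-0.017 to 0.14) averaged. By diet they were Nr1h3 (-0.0041 to 0.030), Fads1 (-0.19 to 0.030), Fads2 (-0.29 to 0.074) and Tkfc (-0.11 to 0.031) in WT, Srebf1 (-0.13 to 0.16) and Tkfc (-0.0041 to 0.36) in Adn-Lpin1-/-, and Mlxipl (-0.052 to 0.021) and Tkfc (-0.011 to 0.17) averaged. For the difference between genotype effects they were Nr1h3 (-0.00016 to 0.062), Thrsp (-0.41 to 0.070) and Me1 (-0.12 to 0.52). The cause of these changes was not tested. Between 2669 and 106473 reads a gene and mouse, counting error is small beside the spread between mice, and 5 mice a group limit the precision.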

Other observations

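The ratio of Fads2 to Fads1 differed by genotype on both diets, a measure chosen after the values had been seen. Mean log2 ratios were -0.08 ± 0.13 (SD, n = 5) in WT and 0.24 ± 0.14 in Adn-Lpin1-/- mice on the LFD, and -0.12 ± 0.16 and 0.24 ± 0.17 on the HFD. The genotype difference was 0.32 on the LFD (two-sided exact permutation test, p = 0.0159, adjusted p = 0.0476 over 4 comparisons) and 0.36 on the HFD (exact permutation p = 0.0238, adjusted p = 0.0476). The diet difference was -0.04 in WT (exact permutation p = 0.698) and -0.00 in Adn-Lpin1-/- (exact permutation p = 0.96). Fads2 was thus higher relative to Fads1 in Adn-Lpin1-/- mice on either diet. Because the ratio was picked from these data, the p-values are descriptive.

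The libraries of pooled RNA gave the same levels as the mice that went into them. Of 40 values of the 10 genes in the 4 pools, 38 lay within the range of the group's 5 mice, and the ratio of pool to mean was between 0.90 and 1.09 on the RPKM scale. The exceptions were Nr1h3 in the pools of WT HFD (44.6 RPKM) and Adn-Lpin1-/- HFD (43.4 RPKM), where the spread between mice was small.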
